A study of Drosophila melanogaster with 90 samples.

Results

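The trans-heterozygotes described here carried 2 different mutant alleles of small ovary (sov), one on each X chromosome, and were fertile by their labels. They comprised 6 libraries of polyA RNA from adult Drosophila melanogaster ovaries, 3 written KG00226/sov2 and 3 written sov2/KG00226. They were compared with 10 libraries from fertile heterozygotes that carried the same alleles singly over a w1118 chromosome, so 16 of the 90 libraries of the series entered the comparisons. The libraries were chosen by their genotype labels and replicate numbers, and 2 heterozygote libraries were left out because of values measured in them, given below.

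Sov is a nuclear zinc finger protein that associates with heterochromatin and is needed for transposon silencing and for the development of the ovary. Heterochromatin keeps most transposon copies silent, and in the ovary Piwi-interacting RNAs (piRNAs) guide part of that silencing. The telomeres of Drosophila are built from retrotransposons, HeT-A, TART and TAHRE, in place of simple repeats.

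The KG00226 chromosome carries y1 and a SUPor-P element, a P-element vector with white and yellow marker genes, inserted in CG14438, an older name of sov. The sov2 chromosome carries y1, cv1, sov2, v1 and f1. KG00226 heterozygotes were represented by KG00226/w1118 replicates 1 and 2 and w1118/KG00226 replicates 1 to 3, and sov2 heterozygotes by sov2/w1118 replicates 2 and 3 and w1118/sov2 replicates 1 to 3. Females were 4 to 5 days old and raised at 25 °C, and each sample pooled 15 ovaries. For reference, 2 further genotypes were used, w1118/w1118 (3 libraries, control) and homozygous KG00226 (3 libraries, fertile by the labels). Every control chromosome was w1118 and no trans-heterozygote carried it, so the loss of sov function and the absence of the w1118 chromosome set could not be told apart in the comparison with heterozygotes alone. What the written order of the alleles means for the cross is not given in the sources used here.

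The 16 libraries held 3463633 to 10258285 gene counts each, with a median of 5249668. Of the germline and eggshell genes that define the tissue, 38 of 38 measured genes of oocyte and maternal function and 20 of 20 chorion genes passed the filter on low counts. A gene can pass this filter with counts in some of the libraries only. KG00226/w1118 replicate 3, left out of the comparisons, had a transposon share of 0.451% of its counts against 0.0314% to 0.0528% in the 10 heterozygotes. The other library left out, sov2/w1118 replicate 1, held 2110 gene counts. The named features that lost their calls with KG00226/w1118 replicate 3 or both libraries added are given where they are described or before the gene lists.

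Transposon RNA was higher in each of the 6 trans-heterozygotes than in each of the 10 heterozygotes compared, while the 2 left-out heterozygote libraries, at 0.451% and 0.706%, lay above all 6. Transposon families took 0.109% at the lowest, 0.199% at the median and 0.372% at the highest of gene and transposon counts in the 6 trans-heterozygotes. The 10 heterozygotes lay at 0.0314%, 0.0403% and 0.0528%. With all 12 heterozygote libraries the mean difference was 1.55 on the log2 scale (two-sided exact permutation test over libraries, p = 0.038), and with KG00226/w1118 replicate 3 but not the library of 2110 counts 1.87 (exact permutation p = 0.0037). Without both it was 2.18 (exact permutation p = 0.00025, the smallest that 6 against 10 can give). KG00226/w1118 replicate 3 stood apart on this same transposon share, so leaving it out partly fixed that p and the lack of overlap, for the share and for the families and genes described below. The difference was 2.25 when transposon counts were set against the ERCC spike-in counts instead of the total. With the 6 genotype means of the 16 libraries as the units, the difference was 2.17 and the exact permutation p = 0.13, the smallest that 2 against 4 allows. The 3 w1118/w1118 libraries had shares of 0.0283%, 0.0303% and 0.0398%, and the 3 homozygous KG00226 libraries 0.411%, 0.242% and 0.187%. The plot of transposon share by genotype shows these values.

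**Figure D1:**
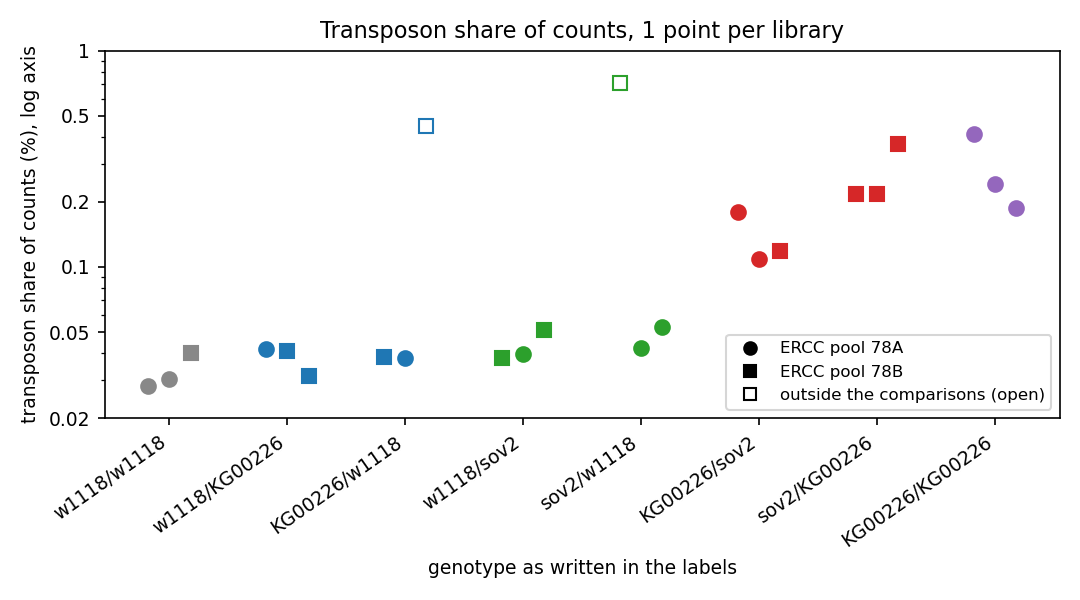
Transposon share of gene and transposon counts in percent (log axis) for each library of 8 genotypes; circles and squares mark the ERCC spike-in pool and open symbols the 2 libraries outside the comparisons. The 6 trans-heterozygotes lie between 0.109% and 0.372%, above the 10 heterozygotes used, which lie between 0.0314% and 0.0528%.

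The test across all features called 439 of 7725 genes and transposon families higher in the trans-heterozygotes (5.68%) and 387 lower (5.01%). A feature was called when its adjusted p from edgeR's quasi-likelihood test, with Benjamini-Hochberg adjustment over all features, was under 0.05. Of 67 transposon families tested, 33 were called higher and 1 lower, and 32 of the 33 rose by more than 2-fold. Of 147 families, 67 passed the filter on low counts, which a family could pass through the trans-heterozygotes alone, so the share called and the medians over tested families are descriptions of those that passed and not of all families. The median log2 change was 0.80 over the 67 families and 0.01 over all features. The groups did not overlap for 101 higher features (1.31%) and 39 lower ones (0.505%). With KG00226/w1118 replicate 3 added, 301 features were called higher and 237 lower, and 21 transposon families were called higher. With counts summed per genotype, 2 genotypes against 4, the test called 56 features higher and 18 lower, and 12 transposon families higher.

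Of 4 telomeric retrotransposon families in the counts, 3 passed the filter, and all 3 rose. HETA, the family with the highest CPM (normalised counts per 1000000 library counts) in the trans-heterozygotes, had 211 CPM at the lowest, 769 at the median and 1813 at the highest of the 6 libraries. In the 10 heterozygotes HETA had 12.1, 16 and 35.9 CPM, without overlap. Its log2 fold change was 5.27 ± 0.25 (SE; edgeR adjusted p = 1.25e-10). TART ranged from 28.0 to 197 CPM with a median of 72.0, against 1.72 to 10.9 with a median of 3.73, a log2 fold change of 4.03 ± 0.26. TAHRE ranged from 34.9 to 169 CPM with a median of 92.7, against 3.68 to 14.2 with a median of 6.49, a log2 fold change of 3.62 ± 0.25. For both, the lowest trans-heterozygote lay above the highest heterozygote.

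LTR retrotransposons, which move through an RNA copy as retroviruses do, made up most of the other large rises. Gypsy, an endogenous retrovirus known from the somatic follicle cells of the ovary, had 79.1, 103 and 151 CPM (lowest, median, highest) in the trans-heterozygotes and 0.362, 2.14 and 5.43 CPM in the heterozygotes. Its log2 fold change was 5.84 ± 0.17 (edgeR adjusted p = 2.41e-13). Stalker2 had 21, 29.5 and 43.5 CPM against 0, 0.366 and 0.614 CPM, with 1322 counts in the 6 trans-heterozygotes and 18 in the 10 heterozygotes. Copia had 19.5, 44.2 and 55.3 CPM against 0.837, 1.83 and 4.91 CPM, a log2 fold change of 4.18 ± 0.27. For these 3 families no trans-heterozygote reached down to the heterozygotes.

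Gypsy12 had 150, 278 and 700 CPM in the trans-heterozygotes. Its heterozygotes differed by allele, with 10.4 CPM on average in KG00226 heterozygotes and 63 CPM in sov2 heterozygotes. Its log2 fold change was 4.89 against the former and 2.23 against the latter, and both were called. Gypsy1 (2.92 ± 0.18), Gypsy2 (2.41 ± 0.12) and TOM_I-int (3.14 ± 0.25) rose on the log2 scale without overlap between the groups. ACCORD (4.22 ± 0.72) and Gypsy5 (2.41 ± 0.38) were called higher, but their lowest trans-heterozygotes, at 0.527 and 1.63 CPM, lay within the heterozygotes.

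By class, among the families that passed the filter, 7 of 10 numbered Gypsy families and Stalker elements rose (median log2 change 2.03), as did 3 of 4 copia-type elements (1.88), 7 of 13 other LTR elements (1.60) and 7 of 17 non-LTR elements, which lack long terminal repeats (0.52). Among gypsy-type endogenous retroviruses 4 of 10 rose (0.49), and among DNA transposons and Helitrons 2 of 10 (0.19). ROO, an LTR element, and DOC, a non-LTR element, were not called, with log2 changes of -0.16 and -0.22. BEL was the single family called lower, with 5.54, 6.80 and 7.84 CPM against 7.46, 11.8 and 20.7 CPM, a log2 fold change of -0.87 ± 0.17 (edgeR adjusted p = 0.0028) with overlapping groups. KG00226/w1118 replicate 3 had 146 CPM of BEL, and the call was lost with that library added (edgeR adjusted p = 0.087).

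Against each kind of heterozygote alone, the trans-heterozygotes had 755 features higher (9.77%) and 782 lower (10.1%) than KG00226 heterozygotes. Against sov2 heterozygotes, 283 were higher (3.66%) and 180 lower (2.33%). KG00226 heterozygotes themselves had 501 features higher (6.49%) and 506 lower (6.55%) than sov2 heterozygotes. Called against both kinds in the same direction were 155 higher features, of which 27 were transposon families, and 96 lower features, of which 1 was a family. The transposon families called higher numbered 32 against KG00226 heterozygotes and 28 against sov2 heterozygotes. The scatter of the 67 families sets the changes against the 2 kinds of heterozygote side by side.

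**Figure D2:**
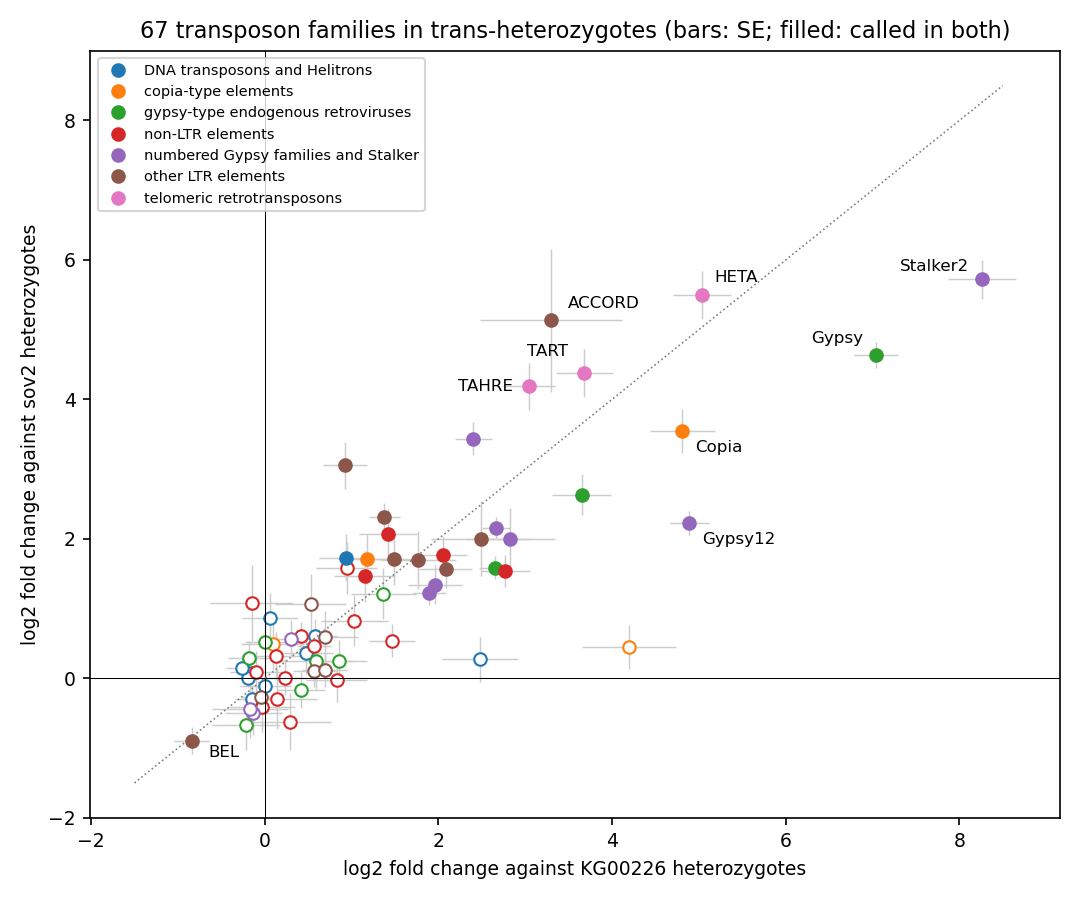
Log2 fold change of 67 transposon families in trans-heterozygotes against KG00226 heterozygotes (x axis) and sov2 heterozygotes (y axis), with SE bars; filled points were called in both and the dotted line marks equal change. HETA lies at 5.04 and 5.50 and BEL at -0.84 and -0.89; both axes share the same 6 trans-heterozygotes, and the position of Stalker2 along the x axis rests on 2 counts in the KG00226 heterozygotes.

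The sov gene itself was slightly higher in the trans-heterozygotes. It was counted as FBgn0029899, lies at X:6756322-6770712 on the plus strand (release 6 of the genome) and had 150, 162 and 177 CPM (lowest, median, highest) in the trans-heterozygotes and 122, 141 and 149 CPM in the heterozygotes, without overlap. The log2 fold change was 0.24 ± 0.05 (edgeR adjusted p = 0.0059), 0.26 against KG00226 heterozygotes and 0.22 against sov2 heterozygotes. The w1118/w1118 libraries had 139, 152 and 133 CPM. Counts of the whole gene do not show which of the 2 alleles the RNA came from, or whether it was intact. The call was lost within either ERCC pool alone (0.26 with adjusted p = 0.071 in pool 78A, 0.20 with adjusted p = 0.13 in pool 78B; edgeR).

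Of the genes within 50 kb of sov, 11 others could be tested and 2 were called. The nested long non-coding RNA lncRNA:CR43496, transcribed from the minus strand at X:6758610-6759491 inside sov, fell by 1.91 ± 0.30 on the log2 scale (edgeR adjusted p = 0.00031). It had 0.176, 0.849 and 1.43 CPM in the trans-heterozygotes and 1.17, 2.95 and 4.82 CPM in the heterozygotes, which overlapped. In w1118/w1118 it had 5.94, 7.74 and 7.54 CPM and in homozygous KG00226 0.441, 0 and 0.276 CPM. CG3168, on the minus strand before sov at X:6720004-6739986, fell by 0.64 ± 0.17 (edgeR adjusted p = 0.023). The neighbours RpL17, a ribosomal protein gene, Coq7, needed for ubiquinone synthesis, and pod1, an actin and microtubule regulator, were not called, with log2 changes of -0.19, 0.08 and 0.12.

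Stock markers differed between the groups. The yellow gene y, a pigmentation gene, had medians of 8.68 CPM in the trans-heterozygotes, 8.17 CPM in KG00226 heterozygotes and 0.234 CPM in sov2 heterozygotes, and homozygous KG00226 had 14.8, 20.1 and 26.8 CPM. The white gene w, which encodes an eye pigment transporter, had medians of 32.5, 4.38 and 20.2 CPM in the same 3 groups. The crossveinless gene cv fell by 0.49 ± 0.10 on the log2 scale, at medians of 16.8 CPM in the trans-heterozygotes, 26.8 CPM in KG00226 heterozygotes and 16.9 CPM in sov2 heterozygotes. Forked (f) was not called, at 1.06 ± 0.35 (edgeR adjusted p = 0.061).

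The genes with the largest rises were near 0 in heterozygotes of both alleles. CG17778 (X:494614-496369) had 27.4, 50.7 and 60.6 CPM in the trans-heterozygotes and 0, 0.230 and 0.737 CPM in the heterozygotes, a log2 fold change of 7.44 ± 0.24 (edgeR adjusted p = 9.47e-13). The gene acj6 (X:15350239-15379064), which encodes a POU domain transcription factor of neurons, had 4.69, 7.92 and 11.7 CPM against 0, 0 and 0.574 CPM. CG4168 (2L:15161882-15200459) had 5.25, 6.74 and 8.78 CPM against 0, 0 and 0.491 CPM. In each of these genes all 6 trans-heterozygotes lay above all 10 heterozygotes. Over the 5 other genotypes that put sov2 over another sov allele or a deficiency, the genotype medians of CG17778 lay between 5.54 and 17.9 CPM, and over the 23 genotypes of any other kind between 0 and 0.707 CPM. The genotype medians of acj6 lay between 1.16 and 3.45 CPM in the same 5 genotypes and between 0 and 0.319 CPM in the same 23. Homozygous KG00226 had 1 count of CG4168 and none of acj6 in its 3 libraries. These levels across genotypes are given as a description, with no test.

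Other risers were also high in homozygous KG00226. CG10508 (3L:21210215-21216051) had 9.33, 11.5 and 13.1 CPM in the trans-heterozygotes, and its heterozygotes differed by allele, at 4.59 CPM on average with KG00226 and 0.151 CPM with sov2. In homozygous KG00226 it averaged 19.6 CPM. The transcription factor gene dysf (3R:26076592-26098711) had 2.11, 6.44 and 17.1 CPM in the trans-heterozygotes, no counts in the sov2 heterozygotes and 11.1 CPM on average in homozygous KG00226. Over the 6 genotypes that put KG00226 over itself, another sov allele or a deficiency, the genotype medians of dysf lay between 11.8 and 52.6 CPM, and those of CG10508 between 20.2 and 108 CPM. Over the 22 genotypes of any other kind than KG00226 over a sov allele, dysf stayed at or under 0.843 CPM and CG10508 at or under 4.27 CPM. The subunit gene nAChRalpha3 of the nicotinic acetylcholine receptor rose by 3.15 ± 0.28 on the log2 scale and had 8.06 CPM at the median, against 9.54 CPM on average in homozygous KG00226. Its genotype medians lay between 0.578 and 22.7 CPM over the 6 genotypes with KG00226. Over the 5 other genotypes with sov2 over a sov allele or deficiency they lay between 0.539 and 10.4 CPM.

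The genotype medians of 2 further risers lay between 4.84 and 13.3 CPM (CG43163) and between 2.97 and 7.46 CPM (CG9427) over the 5 other genotypes with sov2 over a sov allele or deficiency, and at or under 1.38 and 0.832 CPM over the 6 with KG00226. They rose by 3.13 ± 0.28 and 2.91 ± 0.20 on the log2 scale. CG5810 (4.98 ± 0.31) had medians from 1.21 to 7.46 CPM over the former and from 0.279 to 1.94 CPM over the latter.

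Other risers reached high levels in some sov mutants of both kinds. GstE10, which encodes a glutathione S-transferase, had 6.71, 10.7 and 12.6 CPM in the trans-heterozygotes and 0, 0.120 and 0.679 CPM in the heterozygotes, a log2 fold change of 6.42 ± 0.36 (edgeR adjusted p = 6.44e-09). It had 2 counts in homozygous KG00226, and 16.6 CPM in the left-out library KG00226/w1118 replicate 3. Hsp70Ba, an inducible chaperone gene, had 9.59, 16.6 and 30.4 CPM against 0.906, 1.41 and 2.58 CPM, a log2 fold change of 3.45 ± 0.15 without overlap. It had 3.46, 36 and 4.49 CPM in the 3 w1118/w1118 libraries, so 1 control library lay above all trans-heterozygotes. Its genotype medians lay between 13.8 and 84.7 CPM over the 5 other genotypes with sov2 over a sov allele or deficiency, and between 5.26 and 122 CPM over the 6 with KG00226. For GstE10 the same ranges were 2.85 to 21.6 CPM and 0 to 38.3 CPM. The Hsp70 copies are nearly identical in sequence, and the counting can split reads between them. CG34166 (2.54 ± 0.27), the dynein heavy chain gene Dhc98D (3.65 ± 0.35) and the BTB domain gene lov (2.53 ± 0.20) completed the 14 largest rises on the log2 scale. Their genotype medians reached 32.1, 10.4 and 9.38 CPM over the 5 genotypes with sov2 and 10.9, 8.27 and 7.85 CPM over the 6 with KG00226.

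For each of the 10 genes with the largest falls, the mean was highest in w1118/w1118, intermediate in heterozygotes and lowest in the trans-heterozygotes. For 7 of the 10, all 3 w1118/w1118 libraries lay above all 10 heterozygotes. The trans-heterozygotes lay below all heterozygotes for all 10, as the naming rule requires. Dscam4 (3L:8238647-8282398), a cell adhesion gene of the immunoglobulin superfamily, averaged 38.8 CPM in w1118/w1118 and had 16.6, 21.4 and 27.5 CPM in the heterozygotes. The 6 trans-heterozygotes held 2 counts of it in all, and the ratio of heterozygotes to trans-heterozygotes was 431, with an exact 95% interval of 119 to 3562 for counting error only. The gene tut (3L:8209577-8210743), known for its role with bam in the testis, had 3.30, 9.16 and 15.4 CPM in the heterozygotes, 0.384, 0.543 and 1.93 CPM in the trans-heterozygotes and 36.1 CPM on average in w1118/w1118. CG13032 (3L:16673964-16676264) averaged 22.3 CPM in w1118/w1118, had 5.98, 8.80 and 12.6 CPM in the heterozygotes and 2 counts in all 6 trans-heterozygotes. In homozygous KG00226 the averages were 0.0735 CPM for Dscam4, 0.0735 CPM for tut and 0 for CG13032. Over the 5 other genotypes with sov2 over a sov allele or deficiency, the genotype medians of Dscam4 lay between 0.392 and 12.224 CPM. Those of tut lay between 7.036 and 14.034 CPM and those of CG13032 between 0.253 and 3.887 CPM. Over the 6 with KG00226 the medians of Dscam4, tut and CG13032 started at 0 and reached 22.303, 8.316 and 2.311 CPM. In homozygotes of another sov allele, NP6070, the median of CG13032 was 10.805 CPM, within the range of the heterozygotes. In the mCherry-RNAi controls with da-Gal4 and with nos-Gal4 it was 0. None of Dscam4, tut and CG13032 was thus low in all sov mutants, and CG13032 was not low in sov mutants only. These levels are given with no test.

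CG11700 averaged 25.7 CPM in w1118/w1118, had 6.88, 10.3 and 13.6 CPM in heterozygotes and 0.384, 1.5 and 2.25 CPM in trans-heterozygotes, a log2 fold change of -3 ± 0.27 (edgeR adjusted p = 7.39e-07). The serine protease gene modSP, which acts upstream of Toll in immunity, averaged 21 CPM in w1118/w1118, had 5.15, 8.71 and 12 CPM in heterozygotes and 0.863, 1.37 and 2.21 CPM in trans-heterozygotes. CG6125 (-4.42 ± 0.37), CG6908 (-2.25 ± 0.25), CG7408 (-2.14 ± 0.18), CG12880 (-2.14 ± 0.19) and CG31999 on chromosome 4 (-2.11 ± 0.22) fell on the log2 scale, each without overlap. The left-out library KG00226/w1118 replicate 3 had 21.8 CPM of Dscam4, 7.26 CPM of tut, both within the range of the 10 heterozygotes, and 5.53 CPM of CG13032, just below it. The panels of 12 named genes show both kinds of pattern.

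**Figure D3:**
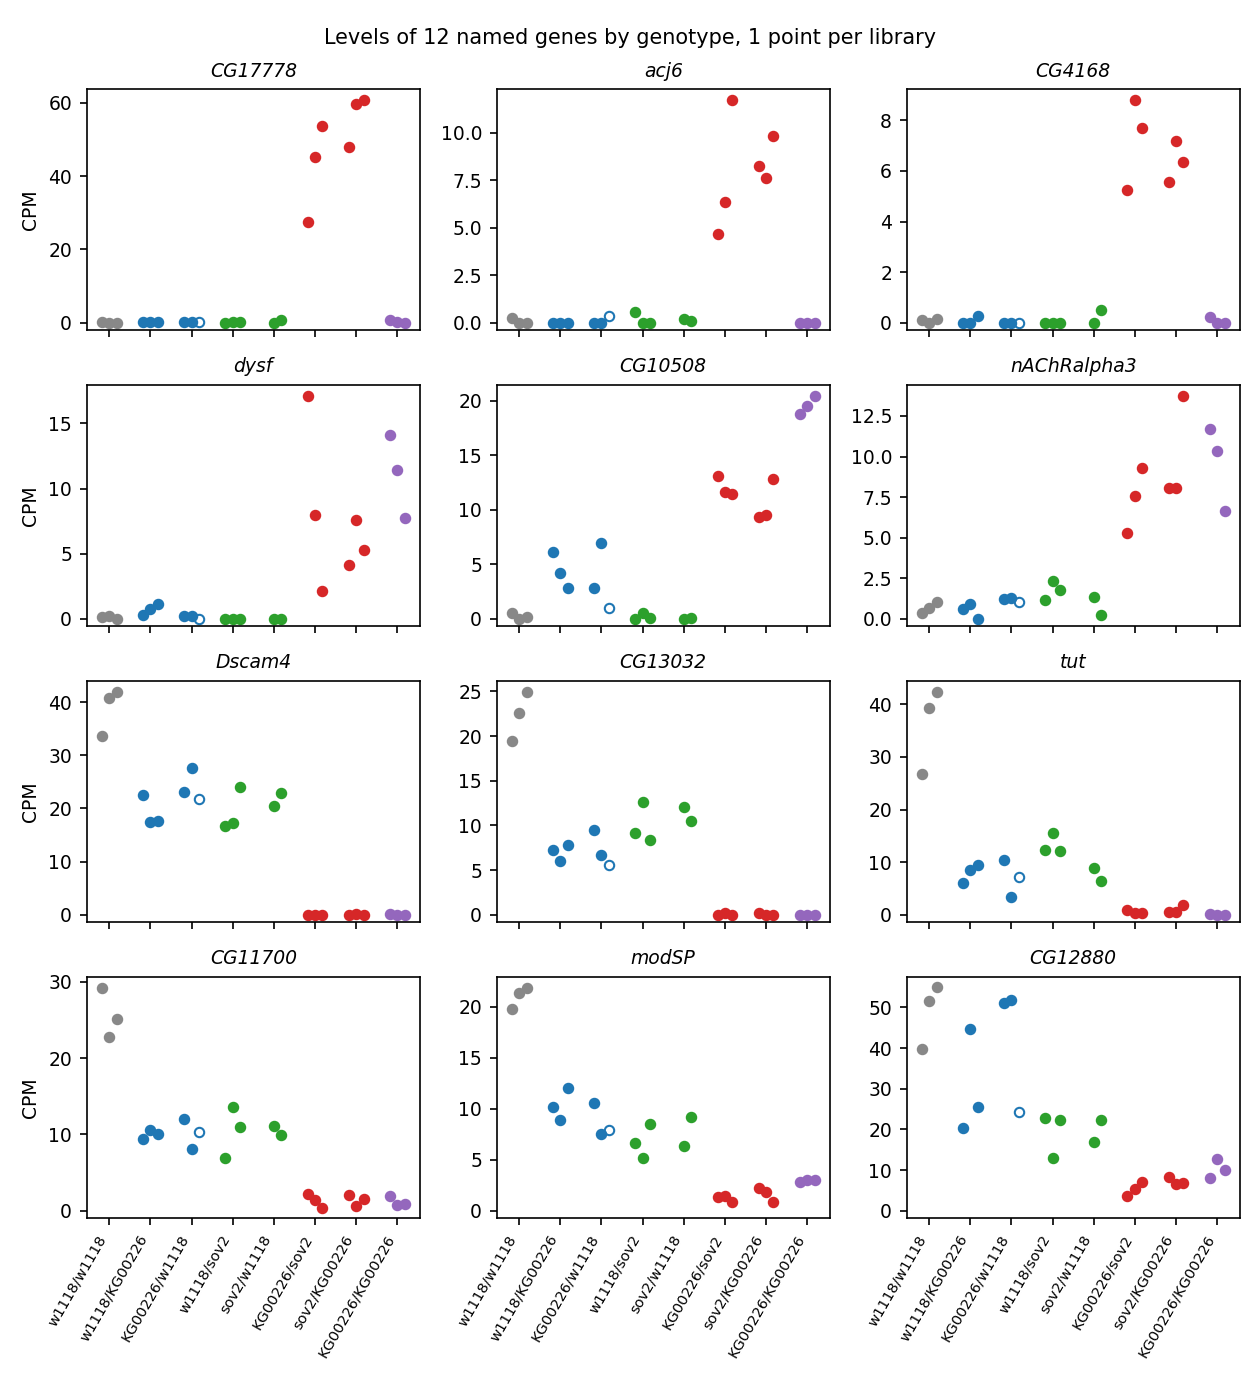
CPM of 12 named genes (linear axes, scaled to the normalisation of the fit that includes w1118/w1118 and homozygous KG00226) in each library of 8 genotypes; the open symbol is KG00226/w1118 replicate 3, which was outside the comparisons, and sov2/w1118 replicate 1 is not drawn. The upper 6 genes are high in the 6 trans-heterozygotes, with dysf, CG10508 and nAChRalpha3 also high in homozygous KG00226; the lower 6 genes are highest in w1118/w1118 and lower in the 6 trans-heterozygotes and homozygous KG00226.

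The levels were also set against a sum of the separate shifts on the CPM scale: the mean of KG00226 heterozygotes plus the mean of sov2 heterozygotes minus the mean of w1118/w1118. This sum was chosen after the values were seen and carries no test. It lay below all 6 trans-heterozygotes for 27 of the 27 transposon families called higher against both kinds of heterozygote. The median ratio of the observed mean to the sum was 1.54 on the log2 scale for those families, and 23 of them lay over 2-fold from it. Of the 127 genes called higher that this fit measured, the sum lay below all 6 trans-heterozygotes for 91 and within their range for 35. Of the 94 genes called lower, it lay above all 6 for 56, within their range for 25 and below all 6 for 13. The sum was below 0 CPM, which no library can reach, for 9 of these genes called lower, tut, CG13032, CG11700 and modSP among them, and for 3 genes called higher, Hsp70Ba among them, so that its place below all 6 libraries was fixed for them. HETA averaged 793 CPM where the sum gave 17.9 CPM, and Gypsy 107 CPM where the sum gave 4.76 CPM. Dscam4 averaged 0.0379 CPM where the sum gave 3.17 CPM, out of 38.8 CPM in w1118/w1118. These features were chosen for differing from both kinds of heterozygote, so their distance from the sum is a description.

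**Figure D4:**
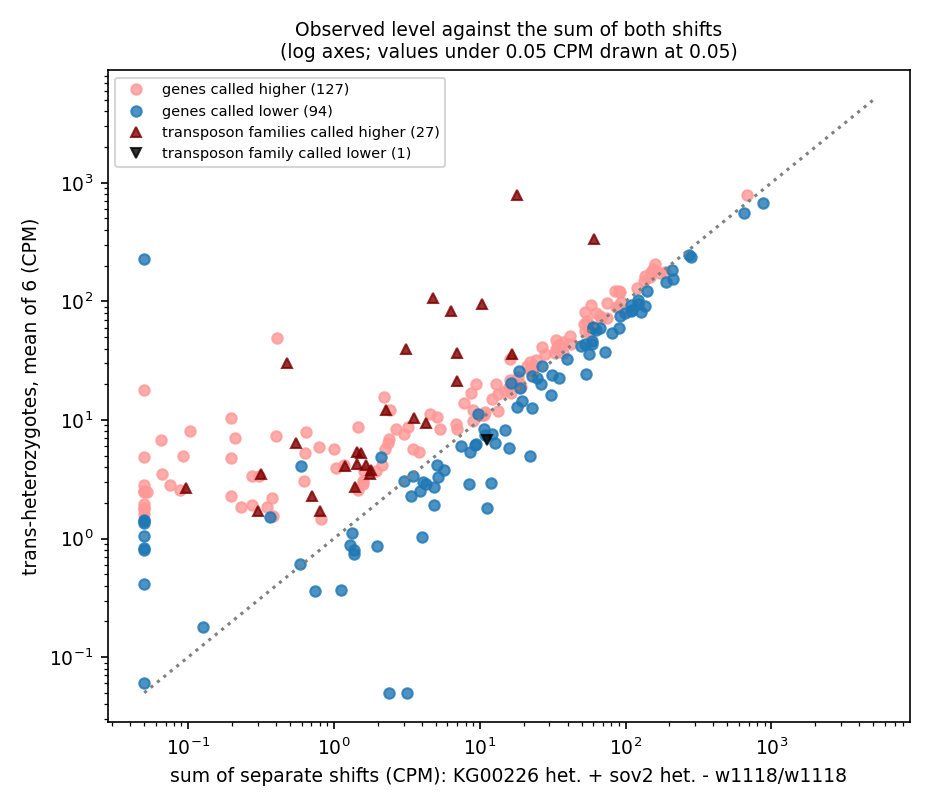
Mean CPM of the 6 trans-heterozygotes (y axis) against the sum of the separate shifts (x axis) for features called against both kinds of heterozygote, on log axes with values under 0.05 CPM, the 12 sums below 0 included, drawn at 0.05. All 27 transposon families called higher lie above the dotted line of equality, and 91 of the 127 genes called higher had a sum below all 6 libraries.

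On the log2 scale the same departure could be tested with a contrast of trans-heterozygotes minus both kinds of heterozygote plus w1118/w1118. It called 289 of 7790 features above the sum of the 2 log2 shifts (3.71%) and 301 below (3.86%), and among 70 transposon families 15 above and 0 below. HETA departed by 5.34 (edgeR adjusted p = 8.7e-06), Gypsy2 by 2.37 (edgeR adjusted p = 0.0001) and Gypsy12 by 2.54 (edgeR adjusted p = 0.00053). Among the genes above were CG4168, GstE10, CG5810 (5.58, edgeR adjusted p = 0.0027) and Hsp70Ba, at 6.61 with the high w1118/w1118 library included. Below the sum were Dscam4 and CG13032, and also genes that were low in w1118/w1118. The X-linked gene sordd2 averaged 0.0824 CPM in w1118/w1118, 9.37 and 9.76 CPM in KG00226 and sov2 heterozygotes, 19.1 CPM in trans-heterozygotes and 21.6 CPM in homozygous KG00226. The gene jtb rose the same way, from 0 counts in w1118/w1118 to medians of 3.91 and 3.09 CPM in the heterozygotes and 8.68 CPM in the trans-heterozygotes. The long non-coding RNA lncRNA:CR40469 averaged 6.30 CPM in w1118/w1118 and 714 CPM in trans-heterozygotes. For such loci the log2 sum and the CPM sum differ: sordd2 departed by -5.18 on the log2 scale (edgeR adjusted p = 2.34e-05) while in CPM the sum was 19.05 against an observed mean of 19.1. With KG00226/w1118 replicate 3 added, 83 features were called above and 94 below, and GstE10 was no longer called.

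Homozygous KG00226 shares with the trans-heterozygotes the absence of the w1118 chromosome. Against it, 244 features were higher in the trans-heterozygotes (3.13%) and 186 lower (2.39%), and among the families 7 were higher and 4 lower. All 3 homozygous KG00226 libraries had ERCC pool 78A, while 4 of the 6 trans-heterozygotes had pool 78B, and with the pool as a term 170 features were called higher and 138 lower. The telomeric families were lower than in homozygous KG00226: HETA at -1.35 on the log2 scale (edgeR adjusted p = 0.0085), TART at -1.35 (edgeR adjusted p = 0.0093) and TAHRE at -1.61 (edgeR adjusted p = 0.0011). With the pool as a term, these 3 calls were lost: HETA was at -1.16 (edgeR adjusted p = 0.091), TART at -1.17 (edgeR adjusted p = 0.15) and TAHRE at -1.30 (edgeR adjusted p = 0.052). Without homozygous KG00226 replicate 1, HETA was at -0.92 (edgeR adjusted p = 0.13) and TART at -0.76 (edgeR adjusted p = 0.23). With KG00226/w1118 replicate 3 added HETA, TART, Gypsy12 and Gypsy2 were not called, and TART was not called by DESeq2. HETA had 2616, 1473 and 1101 CPM in the 3 homozygous KG00226 libraries. Stalker2 (5.29), Gypsy (4.80), Copia (2.59), Gypsy12 (1.26) and Gypsy2 (1.14) were higher in the trans-heterozygotes. Gypsy1 (0.05, edgeR adjusted p = 0.93) and TOM_I-int (0.20, edgeR adjusted p = 0.79) were not called. Among genes with at least 5 CPM in the higher group, CG17778 (7.09), acj6, CG4168, GstE10 and CG43163 had the largest rises, and acj6 had 353 counts against 0, at least 33.8-fold higher against a floor of 3 counts over the 3 libraries. CG43064 (-4.57), tty (-3.47), TkR99D, a tachykinin receptor gene (-3.26), CG32719 (-3.16) and nolo (-2.58) had the largest falls by the same rule. CG43064 averaged 17.2 CPM in homozygous KG00226, 0.792 CPM in trans-heterozygotes and 4.94 CPM in w1118/w1118.

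The 2 written orders of the alleles differed in a small number of features. Between KG00226/sov2 and sov2/KG00226, 43 features were higher in the former (0.557%) and 49 lower (0.634%), and 4 transposon families were lower and 0 higher. HETA had 677, 211 and 267 CPM in KG00226/sov2 replicates 1 to 3 and 922, 862 and 1813 CPM in sov2/KG00226, without overlap, a log2 difference of -1.64 ± 0.34 (edgeR adjusted p = 0.033). TART had 64.3, 28.0 and 29.2 CPM against 100, 79.7 and 197 CPM, again -1.64 (edgeR adjusted p = 0.027). Gypsy12 had 216.6, 186.3 and 150.5 CPM against 340, 433 and 700 CPM, a difference of -1.42 ± 0.21 (edgeR adjusted p = 0.0089). The transposon share as a whole was 0.98 lower on the log2 scale in KG00226/sov2, with exact permutation p = 0.1, the smallest that 3 against 3 can give. Hsp70Ba had 9.94, 10.8 and 9.59 CPM against 22.5, 30.4 and 23.9 CPM. CG17470 (-2.42) and CG44247 (-2.23) were also lower in KG00226/sov2, while Cadps, needed for release of dense-core vesicles, (1.33), msd1 and msd5, both subunits of the augmin complex of the mitotic spindle (0.83 and 0.63), CG34293 (0.72) and the eggshell gene Vm32E (0.66) were higher.

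The ERCC pool differed with the order: KG00226/sov2 replicates 1 and 2 had pool 78A and replicate 3 pool 78B, while all 3 sov2/KG00226 libraries had pool 78B. The part of the pool in these differences was not tested beyond a fit with the pool as a term, under which HETA (-1.78, edgeR adjusted p = 0.061) and TART (-1.72, edgeR adjusted p = 0.066) were no longer called. Within pool 78B, KG00226/sov2 replicate 3 had 267 CPM of HETA, below the 862 to 1813 CPM of the other order. Without sov2/KG00226 replicate 3, HETA was at -1.21 (edgeR adjusted p = 0.18) and TART at -1.17 (edgeR adjusted p = 0.16), and 4 features in all were called. Without KG00226/sov2 replicate 2 the calls were also lost, with HETA at -1.36 and TART at -1.47, and without KG00226/sov2 replicate 3, with both at -1.43. The call of HETA was lost without sov2/w1118 replicate 2 or 3, with the difference at -1.65 in each case. Gypsy12 stayed called under each of these alternatives.

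**Figure D5:**
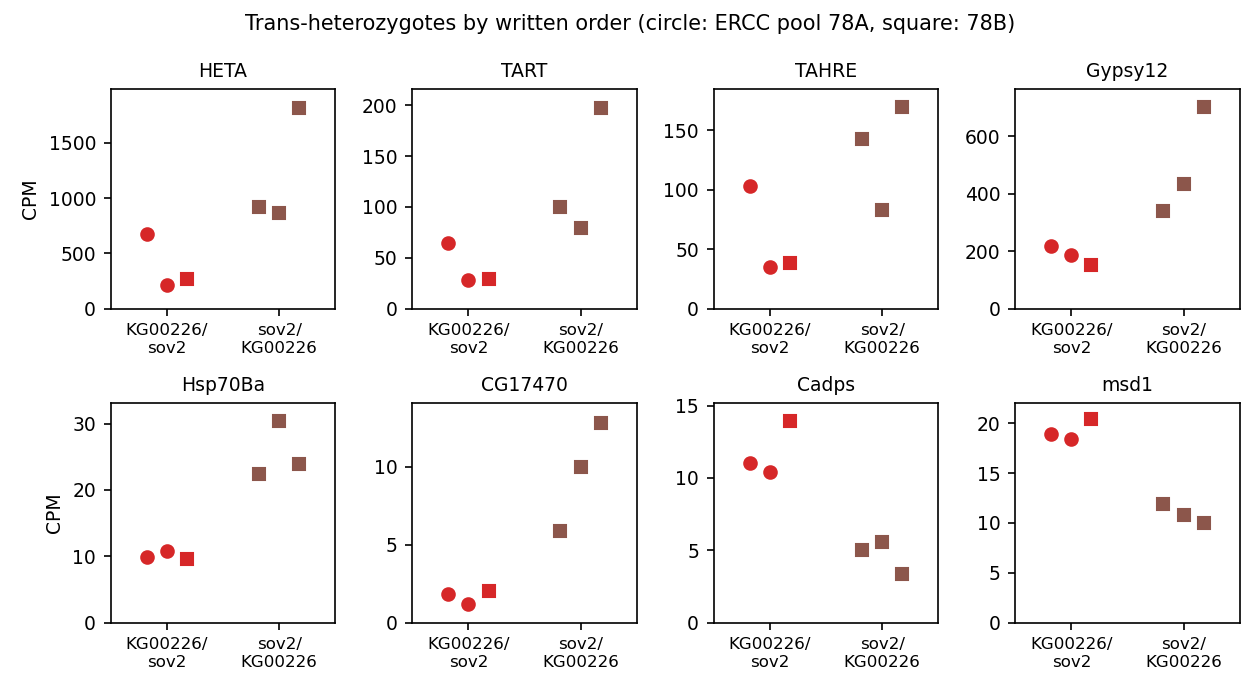
CPM of 4 transposon families and 4 genes in the 6 trans-heterozygote libraries by written order of the alleles (linear axes from 0; circles ERCC pool 78A, squares 78B). HETA lies between 211 and 677 CPM in KG00226/sov2 and between 862 and 1813 CPM in sov2/KG00226.

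The counts of the gene lists are to be read against the 5.68% of all features called higher and the 5.01% called lower than in all heterozygotes. With KG00226/w1118 replicate 3 added, 16 of the genes taken from the lists by the naming rule lost their calls: ADD1, Su(var)3-3, E(var)3-9, Muc12Ea, Mur11Da, Vm26Ac, Yp2, nanos, Tl, peb, zfh1, sog, Hsp23, Hsp27, Oamb and twe. With both left-out libraries added, Cp19, ND-49, RpL30, RpS21 and RpS12 lost theirs as well.

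Of 32 piRNA pathway genes tested, 2 were called higher and 0 lower, against 5.68% and 5.01% of all features, with a median log2 change of -0.04 against 0.01 over all features. They were BoYb, a Tudor domain relative of Yb (0.31 ± 0.06), and squ (0.24 ± 0.05). Of 27 heterochromatin protein genes, 5 were called higher and 0 lower, against the same 5.68% and 5.01%, with a median of 0.10. The strongest was wde, a cofactor of the histone H3K9 methyltransferase Eggless, with 146, 161 and 184 CPM against 104, 127 and 150 CPM, a log2 change of 0.37 ± 0.06 (edgeR adjusted p = 0.00067). The gene of the methyltransferase, egg, rose by 0.16, ADD1 and Su(var)3-3 by 0.23 and 0.24, and E(var)3-9 by 0.18. Of the 27 genes, 6 were higher and 1 lower against KG00226 heterozygotes, where 9.77% and 10.1% of all features were. Against sov2 heterozygotes 1 was higher and 0 lower, where 3.66% and 2.33% of all features were, with a median of 0.04. None of 7 antiviral RNA interference genes was called in the edgeR test, with a median of 0.06.

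Among germline lists, 4 of 38 oocyte and maternal genes were called higher and 2 lower (median 0.07), against 5.68% and 5.01% of all features. The risers were cort, an activator of the anaphase-promoting complex in female meiosis (0.42 ± 0.07), png, a kinase of egg activation (0.34 ± 0.08), nanos (0.22 ± 0.05) and Tl (0.21 ± 0.06), and the fallers egl and vls. Of the 38 genes, 9 were higher and 1 lower against KG00226 heterozygotes, where 9.77% and 10.1% of all features were. Against sov2 heterozygotes 1 was higher and 0 lower, where 3.66% and 2.33% of all features were. Of 19 early germline genes 2 were lower, tut and fus (-0.22 ± 0.05), and of 22 meiosis genes 1 was higher, c(2)M of the synaptonemal complex (0.37 ± 0.09). None of 16 sex determination genes was called by edgeR, with a median of 0.00.

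Eggshell and follicle cell genes were variable among the heterozygotes. Of 20 chorion genes, 4 were called lower and 0 higher (median -0.33), against 5.01% and 5.68% of all features. Cp19, a chorion protein gene, had 559, 1511 and 1956 CPM in the trans-heterozygotes against 1062, 3156 and 6499 CPM in the heterozygotes, a log2 change of -1.17 ± 0.30 (edgeR adjusted p = 0.019). Against KG00226 heterozygotes 6 chorion genes were lower and 1 higher, where 10.1% and 9.77% of all features were, and against sov2 heterozygotes edgeR called none, where 2.33% of all features were lower and 3.66% higher, with medians of -0.15 and -0.35 for the 2 comparisons. Of 13 vitelline membrane genes, 1 was higher against all heterozygotes (median 0.10), 6 were higher against KG00226 heterozygotes and 1 was lower against sov2 heterozygotes. Of all features, 5.68%, 9.77% and 2.33% were called in the same comparisons and directions. In ovary RNA, fewer cells of a stage and less RNA per cell cannot be told apart. Of 22 genes of ovarian somatic and follicle cells, 3 fell, ci, eya (-0.46 ± 0.11) and peb (-0.38 ± 0.11). The gene zfh1 rose (0.26 ± 0.08), and the median of the 22 was -0.23. Against KG00226 heterozygotes 4 of the 22 were lower and 2 higher, where 10.1% and 9.77% of all features were. The edgeR test called none of the 22 against sov2 heterozygotes alone. Of 20 ecdysone response genes 1 was lower than in all heterozygotes, the ecdysone synthesis gene sro (-0.91 ± 0.19), and of 14 genes of JAK-STAT and BMP signalling 1 was lower, the BMP antagonist gene sog (-0.68 ± 0.20). Of these 14 genes, edgeR called none against sov2 heterozygotes alone. Of 4 yolk genes 1 fell, the yolk protein gene Yp2 (-0.55 ± 0.15, log2). Of 4 insulin-like peptide genes 1 fell, Ilp7 (-1.76 ± 0.32), with medians of 7.46 CPM in trans-heterozygotes, 48.7 CPM in KG00226 heterozygotes and 7.83 CPM in sov2 heterozygotes.

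Of 14 heat shock genes 4 were higher (median 0.15), against 5.68% of all features: Hsp70Ba, Hsp70Bc, Hsp23 (0.79 ± 0.15) and Hsp27 (0.37 ± 0.08). Hsp70Bc had 79 counts against 3, a ratio of 35.9 with an exact 95% interval of 11.8 to 178 for counting error only. Of 19 apoptosis and stress genes 3 were higher (median 0.01), against the same 5.68%: the cell death activator rpr, at 1.58, 2.73 and 3 CPM against 0.181, 0.937 and 1.58 CPM (1.54 ± 0.28), the stress transcription factor Xrp1 (0.49 ± 0.13) and GstE1 (0.35 ± 0.10). GstE1 had genotype medians of 75.4 and 89.3 CPM in trans-heterozygotes and 88.6 and 100 CPM in KG00226 heterozygotes. Its rise was thus over sov2 heterozygotes, at 36.0 and 44.5 CPM, and not over KG00226 heterozygotes. Of 29 replication and mitosis genes 1 was higher, again against 5.68%, the origin recognition complex gene Orc6 (0.33 ± 0.09).

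Of 61 oxidative phosphorylation genes 5 were lower and 0 higher (median -0.13), against 5.01% and 5.68% of all features, with COX5B, a subunit of cytochrome c oxidase, at -0.32 ± 0.06. Of 84 ribosomal protein genes 13 were lower and 0 higher (median -0.22), against the same 5.01% and 5.68%, among them RpL30 (-0.37 ± 0.08) and RpS14b (-0.56 ± 0.12). Against KG00226 heterozygotes 35 ribosomal protein genes were lower, where 10.1% of all features were, and against sov2 heterozygotes edgeR called none, where 2.33% were lower. The count against all heterozygotes ran from 0 with counts summed per genotype to 34 with DESeq2, and was 1 with both left-out libraries added.

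Summed levels of other tissues' markers overlapped between the groups. The 27 muscle genes found summed to 1305 to 1655 CPM in the trans-heterozygotes and 1218 to 1704 CPM in the heterozygotes, with 0 of 24 tested called. The hemocyte and basement membrane list summed to 936 to 1855 CPM against 1044 to 2536 CPM, and 2 of 14 fell, SPARC (-0.67 ± 0.11) and Hml (-1.51 ± 0.43), while the hemocyte marker He was at 0 in all 16 libraries. Of these 14 genes, edgeR called none against sov2 heterozygotes alone. Fat body markers summed to 2845 to 4131 CPM against 2298 to 7846 CPM with 0 of 8 called, and Fbp1 and Fst were at 0. Gut markers summed to 260 to 330 CPM against 274 to 363 CPM with 1 of 4 lower, LManII (-0.65 ± 0.11), and Jon65Ai, deltaTry and Npc2d were at 0. Sperm storage and oviduct markers summed to 223 to 315 CPM against 239 to 411 CPM, and 1 of 7 fell, Oamb (-1.01 ± 0.24). Of these 7 genes, edgeR called none against sov2 heterozygotes alone. Oamb had genotype medians of 31.8 and 35.2 CPM in trans-heterozygotes and 36.4 and 37.2 CPM in sov2 heterozygotes. In KG00226 heterozygotes they were 74.5 and 94.8 CPM. Neuron markers summed to 243 to 262 CPM against 214 to 309 CPM, with 0 of 5 called. Of 5 tested testis-enriched genes 1 was higher, twe (0.24 ± 0.06), and 10 were at 0 in all 16 libraries. Of 8 immune genes 1 was higher, Dro (2.04 ± 0.54), and edgeR called none of the 8 against sov2 heterozygotes alone. Dro had genotype medians of 1.04 and 2.42 CPM in trans-heterozygotes and 1.01 and 1.34 CPM in sov2 heterozygotes. In KG00226 heterozygotes they were 0.117 and 0.568 CPM, and in w1118/w1118 the median was 2.59 CPM. Neither of 2 Sox genes was called. The part of these tissues in the other results was not tested.

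By chromosome, the share of genes called was 24.2% on chromosome 4 and 10.3% over all genes. On chromosome 4, a small chromosome that is largely heterochromatic, 3 of 66 genes were called higher and 13 lower, with a median log2 change of -0.07. The genes called lower were mostly shifted by less than 2-fold, as ci, a Hedgehog pathway transcription factor (-0.49 ± 0.10), and ND-49 (-0.20 ± 0.06) show, with CG31999 (-2.11) larger. The 5 large arms had 9.71% to 10.8% of genes called. Of 167 genes in pericentric blocks, 21 were higher and 4 lower (15.0%, median 0.05). On chromosome 4, 20 genes were lower against KG00226 heterozygotes, where 10.1% of all features were, and 4 against sov2 heterozygotes, where 2.33% were. Chromosome 4 also had 12 genes higher in KG00226 than in sov2 heterozygotes, as had 6.49% of all features. The gene ci was not called against sov2 heterozygotes.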

How the data were processed

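From each sample, 200 ng of RNA went into polyA selection, ERCC spike-ins of pool 78A or 78B were added, and stranded libraries were read as 50 bp single ends and mapped to release 6.21, per the labels' protocols and the series text. CASAVA 1.8.2, HISAT2 2.0.5 and HTSeq 0.7.2 are listed in the submitters' processing notes. The authors deposited raw counts per library for 17493 genes, 147 transposon families and 96 ERCC RNAs. The 5 summary rows (12.6% to 26.6% of reads) stayed out of totals and tests. How reads that map to several places were counted is not given in the sources used here. Gene counts ran from 3463633 to 10258285, and counting intervals cover counting error only.

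Features passing filterByExpr (7725) were tested with edgeR 4.0.16 in R 4.3.3: TMM normalisation, the quasi-likelihood test, 1 coefficient per genotype, contrasts of genotype means and Benjamini-Hochberg adjustment over all features. A fit of 22 libraries (7790 features) added w1118/w1118 and homozygous KG00226. CPM are scaled by TMM. Those of the left-out libraries, the genotype medians and the summed marker lists are scaled by the library total alone. SE is the log2 fold change over the root of F. Levels across genotypes are medians of CPM without 3 libraries of under 100000 counts. The test was tried on simulated counts. Shares were compared by exact two-sided permutation tests. Gene positions come from the BDGP6 annotation, not checked against the authors' release 6.21.

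Replicates are pools of ovaries. Replicate numbers did not pair them: over 18 same-number pairs, correlations of deviations ran from -0.28 to 0.21, with 3 over 0.1. The libraries, genes, gene lists and classes were chosen with earlier results of these data known. Named genes are sov, the stock markers and tested genes within 50 kb of sov; the 14 largest rises and 10 largest falls called against all, KG00226 and sov2 heterozygotes, without overlap and with at least 5 CPM in the higher group; the 12 families with the largest rise, up to 5 with the largest fall and the one of highest CPM; up to 4 called genes per list with the smallest adjusted p; and the 5 largest rises and 5 largest falls of the other contrasts. Genes egg, egl and vls, families ROO and DOC, and the level of Hsp70Ba by written order were chosen after their values were seen. Alternatives were RLE size factors, DESeq2 1.42.0, no filter, a replicate block, the ERCC pool as a term, leaving out each library, adding the left-out libraries and sums per genotype; fits within each pool were added after seeing the data.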

Additional observations from a re-analysis of the deposited data

Results flagged for a closer look

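Of 60 groups of 5 or 6 libraries checked for a library apart from its group, 2 held one, where chance gives about 1 in 20. CG43163 had 4.74 CPM in the lowest of the 6 trans-heterozygotes, and Gypsy2 had 9.45 CPM in the highest of the 5 sov2 heterozygotes. Libraries outside the comparisons also carried transposon RNA above the heterozygotes used: the transposon share was 0.451% in KG00226/w1118 replicate 3 and 0.706% in sov2/w1118 replicate 1, which held 15 transposon counts.

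The written orders of the alleles differed by edgeR's test, given as log2 differences of KG00226/sov2 minus sov2/KG00226: HETA at -1.64, TART at -1.64, Gypsy12 at -1.42, CG17470 at -2.42 and CG44247 at -2.23. Cadps differed by 1.33, msd1 by 0.83, CG34293 by 0.72, Vm32E by 0.66 and msd5 by 0.63. The ERCC pool differed with the order in 2 of the 3 KG00226/sov2 libraries, and its part was not tested beyond the fit with the pool as a term.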

How the results depend on the processing

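With no filter, 1264 features were called against all heterozygotes, 732 against sov2 heterozygotes, 382 against both kinds, 430 by written order, 1025 for the departure from the log2 sum and 723 against homozygous KG00226. By written order DESeq2 called 245, and a replicate block or the ERCC pool as a term 56 each. The block gave 724 against all heterozygotes; the numbers did not pair the samples. With KG00226/w1118 replicate 3 added, the counts were 538 against all heterozygotes, 575 between the kinds of heterozygote, 177 for the departure and 21 families higher. With both left-out libraries added, they were 517 against all heterozygotes, 956 against KG00226 heterozygotes, 516 between the kinds and 170 for the departure. Sums per genotype gave 74 features, 12 families higher and sov at 0.25 (edgeR adjusted p = 0.53). The share difference over genotype means was 2.17 (exact permutation p = 0.13). Within pool 78B 516 features were called and sov was at 0.20, and within pool 78A sov was at 0.26. Leaving out 1 library at a time gave 543 (without sov2/w1118 replicate 3) to 947 (without w1118/KG00226 replicate 3) against all heterozygotes, 990 to 1743 against KG00226 heterozygotes, 250 to 504 against sov2 heterozygotes, 163 to 254 against both, 479 to 1093 between the kinds, 230 to 931 for the departure, 225 to 464 against homozygous KG00226, 4 to 180 by written order, 31 to 34 families higher and a share difference of 1.98 to 2.34. Uncalled neighbours of sov changed sign: snoRNA:Psi28S-1060 was at 0.31 in pool 78A and from -0.45 to 0.29 with 1 library left out, snoRNA:Psi28S-1232 at 0.014 with the pool as a term, at 0.0076 with KG00226/w1118 replicate 3 added and from -0.22 to 0.13, pod1 at -0.0047 in pool 78A, and Nf-YC at 0.021 and 0.034 within the pools and from -0.090 to 0.0085. Of all values of named features under the alternatives, 3075 kept direction and call, 338 lost the call, 7 gained it and 14 changed sign. The cause of these changes was not tested, and low counts limit the rarer genes.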
